A study of Mus musculus with 8 samples.

Results

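The genes described are 7 of the 50600 rows of the deposited RNA-seq table: *Pou5f1*, *Sox2*, *Sall4* and *Utf1*, which encode nuclear factors of the pluripotent cell, and *Lin28a*, *L1td1* and *Trim71*, which encode proteins of the LIN28 and let-7 pathway. They were chosen by gene name, each name matched 1 row, and the rule uses no measured value, though earlier results of these data were known when the genes were picked. All 7 had a mean value of at least 5, the filter that left 10222 genes for the tests, so none was lost.

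The RNA came from JUN TetON mouse ESCs, labelled c-Jun_TetOn_mESC, in which doxycycline switches on JUN, a subunit of the AP-1 transcription factor. The line is an OG2 ESC line of strain 1/2 129SVJ, 3/8 C57B6 and 1/8 CBA, taken at passage 12 and grown without feeders in a serum-containing medium with LIF and the 2 kinase inhibitors PD0325901 and Chir99021. Every group received 2 μg/ml doxycycline for JUN induction, the DMSO group included. The groups were DMSO (the solvent), PFI-3 (a bromodomain inhibitor that binds, among others, BRG1, an ATPase of the BAF chromatin remodelling complex), BI-9564 (a bromodomain inhibitor that binds BRD9 and BRD7, subunits of other forms of this complex) and both compounds together (P+B).

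Each group had 2 libraries, which gives 8 in all, and the labels give 6 h of treatment, while the study's legend describes a longer JUN induction than compound exposure. The dose of each compound in these libraries is not given in the labels. The comparisons ask how the RNA of the 7 genes differed with the inhibitors in cells that all received doxycycline for JUN induction. The labels do not settle whether the induction began before the compounds. Libraries without JUN induction were not analysed here, so the level before JUN is not known from these values. OG2 cells carry a GFP reporter under *Pou5f1* regulatory sequence, and whether reporter RNA adds to the *Pou5f1* value was not tested. Nothing in the labels says that replicates were separate cultures, so the p-values below measure the spread between libraries, which may be technical.

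OCT4, the product of *Pou5f1*, and SOX2 bind neighbouring DNA sites together and keep ESCs pluripotent. SALL4 is a zinc finger protein of the same network, and UTF1 is a chromatin-bound protein found mainly in ESCs and germ cells. LIN28A binds the precursor of the let-7 microRNAs and blocks their maturation, so that ESCs hold little mature let-7. TRIM71 is an RNA-binding protein that represses mRNAs of differentiation and cell cycle inhibitors and is itself a classic let-7 target, and L1TD1 is an RNA-binding protein of pluripotent cells that associates with LIN28A.

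The let-7 microRNAs are shown here because they join 3 of the 7 genes. The mature sequences, from RefSeq, are given 5′ to 3′ with bases 2 to 8, the seed, in capitals.
mmu-let-7a-5p: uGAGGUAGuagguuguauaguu
mmu-let-7c-5p: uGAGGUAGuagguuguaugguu
mmu-let-7e-5p: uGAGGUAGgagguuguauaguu
mmu-let-7g-5p: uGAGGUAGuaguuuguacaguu
mmu-let-7j: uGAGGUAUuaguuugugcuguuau
The seed GAGGUAG was shared by 9 of the 10 mature let-7 sequences, and let-7j alone had GAGGUAU. The complement of the shared seed, CTACCTC, was searched on the transcript strand in the 3′ UTR of 1 annotated transcript per gene (GENCODE M21, GRCm38). It was found 4 times in *Trim71*, 2 times in *Lin28a* and 1 time in *Sall4*, and not in *Pou5f1*, *Sox2*, *Utf1* or *L1td1*. The searched UTRs were 5512 bases long in *Trim71*, 2775 in *Lin28a* and 1697 in *Sall4*, against 122 in *Utf1*, 221 in *Pou5f1*, 364 in *L1td1* and 1086 in *Sox2*. Of 9474 tested genes with an annotated 3′ UTR, 991 (10.5%) held at least 1 match, with a median UTR length of 1149 bases. A match is a run of letters and not a measured site, and the values are of RNA, with no let-7 among them.

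The 7 matches are printed with their neighbouring bases, 5′ to 3′ on the transcript, with the match in capitals.
Lin28a match 1: tgcacagcctgttgaaCTACCTCatttttg
Lin28a match 2: tgagatcgccacaaacCTACCTCactgtgt
Trim71 match 1: caacattgcctaagtcCTACCTCagcttaa
Trim71 match 2: aagtgataatttctatCTACCTCaactctt
Trim71 match 3: gtttagtatggattttCTACCTCaattttg
Trim71 match 4: tttggcaaaaagttgtCTACCTCacgtcgg
Sall4 match 1: gagggctttaatttatCTACCTCaattatc
On GRCm38 the *Lin28a* windows are chr4:134005183-134005212 and chr4:134004545-134004574, and the *Sall4* window is chr2:168748934-168748963, all on the minus strand. The *Trim71* windows, also on the minus strand, are chr9:114512466-114512495, chr9:114512370-114512399, chr9:114509041-114509070 and chr9:114509015-114509044. All 7 matches are followed by an A.

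The values are TPM that the authors made whole numbers. TPM is scaled to gene length, so levels may be compared between genes. The order by mean over the 8 libraries was *Pou5f1* (1224, rank 118 of all genes), *L1td1* (341.6), *Utf1* (267.8), *Sox2* (91.8), *Sall4* (76.8), *Lin28a* (56.8) and *Trim71* (28.8, rank 5270). *Sox2* (66 to 111) and *Sall4* (60 to 96) overlapped over the libraries, as did *Sall4* and *Lin28a* (40 to 74). *Utf1* (221 to 311) overlapped *L1td1* (285 to 401), while *Pou5f1* stayed above all others and *Trim71* (23 to 33) below all others in every library. The highest value of a gene was 1.21 times its lowest for *Pou5f1* and 1.85 times for *Lin28a*. The coefficient of variation over the libraries had a median of 13.2% for the 7 genes and 15.5% for all genes tested.

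**Figure D1:**
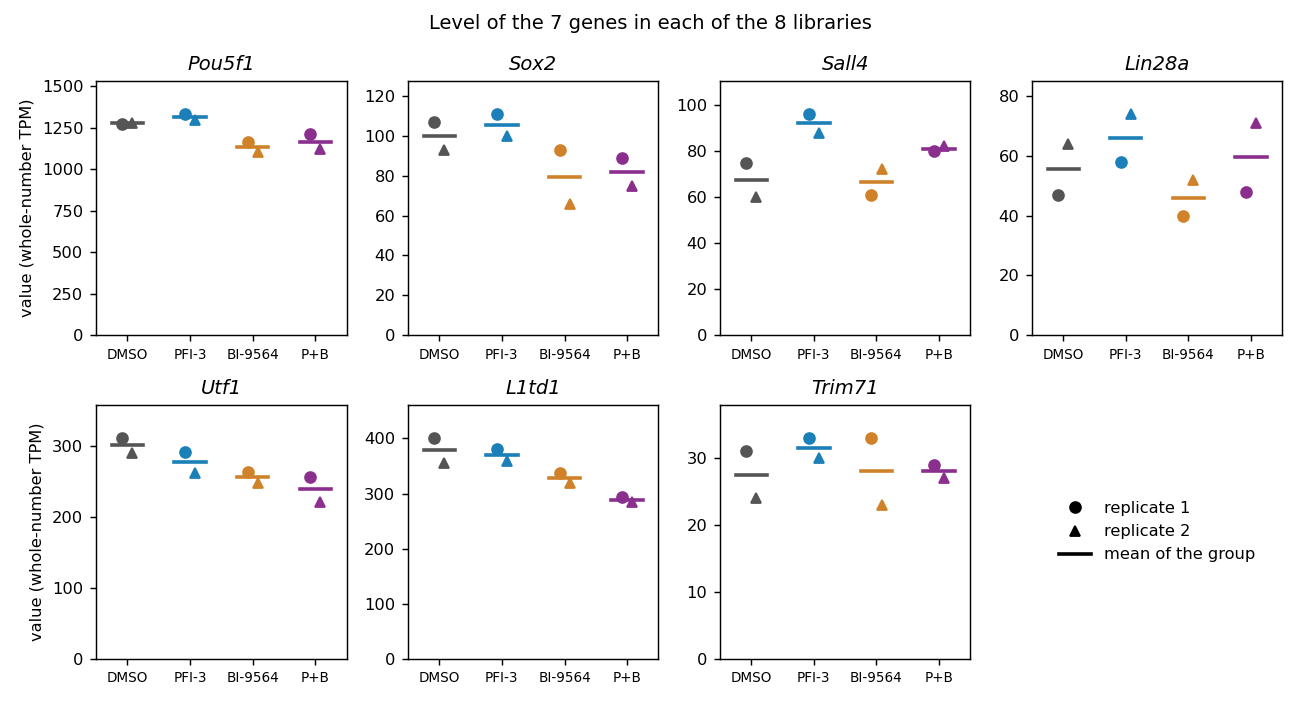
Value of each gene (vertical axis, TPM made whole numbers, from 0) in the 4 groups (horizontal axis), with a circle for replicate 1, a triangle for replicate 2 and a bar for the group mean (n = 2). *L1td1* was lowest with P+B (293 and 285), *Sall4* highest with PFI-3 (96 and 88), and *Lin28a* was higher in replicate 2 of every group.

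The libraries summed to 991574 to 991897, and 10285 to 10451 genes had a value of at least 5 in a library. Depth is unknown, because TPM does not keep it, and no counting error can be given. *Jun*, the induced gene, was at 1970 and 2877 (DMSO), 1570 and 2227 (PFI-3), 2071 and 3011 (BI-9564) and 1569 and 2159 (P+B). Each PFI-3 and P+B library was thus below the DMSO library of the same number. Replicate 2 was higher in every group, by 1.38 to 1.46 times. All 8 mouse ESC markers, *Pou5f1* and *Sox2* among them, were measured at a mean of at least 5. Of 25 markers of primitive endoderm, trophectoderm, mesoderm, neural cells and fibroblasts, 4 had a mean of at least 5 and 7 (*Foxa2*, *Sox7*, *Pdgfra*, *Mesp1*, *Col1a2*, *Postn* and *Lum*) were at 0 in every library. The summed value of these 25 was 106 to 113 with DMSO, 127 to 130 with PFI-3, 123 to 133 with BI-9564 and 147 to 174 with P+B. In 13 of the 25 no library exceeded 1, so the sum rests on few genes and does not stand for 5 cell types. *Tubb3*, among the 4 with a mean of at least 5, was itself called higher with P+B. The part of this sum in the results below was not tested. In bulk RNA, fewer cells of a type and less RNA per cell cannot be told apart.

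None of the 7 genes passed both thresholds, an adjusted p under 0.05 (limma, Benjamini-Hochberg over 10222 genes) and a fold change of at least 1.5, with any treatment. The largest fall with P+B was that of *L1td1*, by 0.39 on the log2 scale. In P+B against DMSO, 0 of 7 members were called, where 409 of all genes (4.0%) were. In BI-9564 against DMSO the count was 0 of 7 beside 11 of all genes (0.108%), and in PFI-3 against DMSO it was 0 of 7 beside 0 of all genes (0.00%), with 694 genes at an unadjusted p under 0.05 by limma, the only tool run. Leaving out 1 library gave 68 to 268 called genes for P+B and 0 or 1 for BI-9564, and the replicate block gave 718 and 156. The same DMSO libraries served in all 3 comparisons, so they are not independent of each other.

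*L1td1* was at 401 and 356 (DMSO), 381 and 359 (PFI-3), 338 and 320 (BI-9564) and 293 and 285 (P+B). Both P+B libraries were below every other library, and both BI-9564 libraries lay between P+B and DMSO. The log2 fold change of P+B against DMSO was −0.39 (SE 0.0832, 95% confidence interval −0.58 to −0.19), a fold of 0.765. Its adjusted p of 0.0413 (limma) passed the p threshold, as in 500 of all genes (4.89%), while the fold did not reach 1.5. With the replicate number as a block the adjusted p was 0.00615. It was 0.0719 to 0.183 when any 1 of the 8 libraries was left out, so the p threshold was lost in each case, over a log2 range of −0.47 to −0.30. It was also lost for *L1td1* with a filter at a mean of 1 (adjusted p = 0.0529), quantile normalization (0.0713), no trend (0.119) and a fit of only the libraries compared (0.171).

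*Utf1* was at 311 and 290 (DMSO), 291 and 262 (PFI-3), 263 and 248 (BI-9564) and 256 and 221 (P+B). The DMSO libraries were above both pairs that had received BI-9564, while PFI-3 overlapped DMSO on its upper side and BI-9564 on its lower side. P+B against DMSO gave −0.34 on the log2 scale (SE 0.0987, 95% confidence interval −0.56 to −0.11). The adjusted p was 0.0933 without a block and 0.0134 with the replicate block, under which 1190 of all genes (11.6%) had an adjusted p under 0.05.

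*Pou5f1*, the most abundant of the 7, was at 1273 and 1281 (DMSO), 1333 and 1299 (PFI-3), 1167 and 1104 (BI-9564) and 1211 and 1124 (P+B). The 4 libraries with BI-9564 were all lower than the 4 without it. P+B against DMSO gave a log2 fold change of −0.13 (SE 0.0640, 95% confidence interval −0.28 to 0.02, adjusted p = 0.276), and BI-9564 against DMSO gave −0.17 (SE 0.0640, −0.32 to −0.02, adjusted p = 0.282). The interval for P+B ends at a fold of 0.825 on its lower side.

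*Sox2* was at 107 and 93 (DMSO), 111 and 100 (PFI-3), 93 and 66 (BI-9564) and 89 and 75 (P+B). P+B lay below DMSO in both libraries, and BI-9564 touched it at 93. The log2 fold change was −0.28 with P+B (SE 0.171, adjusted p = 0.368) and −0.34 with BI-9564 (SE 0.171, adjusted p = 0.389), and the BI-9564 value was −0.59 without its replicate 1 and −0.10 without its replicate 2.

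In *Sall4* every library that received PFI-3, alone or in P+B, was above every library that did not. It was at 75 and 60 (DMSO), 96 and 88 (PFI-3), 61 and 72 (BI-9564) and 80 and 82 (P+B). The difference of PFI-3 from DMSO was 0.45 on the log2 scale (SE 0.136, 95% confidence interval 0.14 to 0.76, fold 1.36), with an adjusted p of 0.594. That of P+B was 0.27 (SE 0.136, adjusted p = 0.291). Both *Sall4* values depended on the 2 DMSO libraries: without DMSO replicate 1 they were 0.61 and 0.43, and without DMSO replicate 2 0.29 and 0.11.

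*Lin28a* was at 47 and 64 (DMSO), 58 and 74 (PFI-3), 40 and 52 (BI-9564) and 48 and 71 (P+B). Every treated group overlapped DMSO, and within each replicate series the order was BI-9564, DMSO, P+B and PFI-3 from low to high. Against DMSO, PFI-3 stood at 0.25 on the log2 scale, BI-9564 at −0.26 and P+B at 0.09, each with an SE of 0.235 and adjusted p-values of 0.912, 0.651 and 0.858. Without DMSO replicate 1 the *Lin28a* values were 0.033 (PFI-3) and −0.48 (BI-9564), and without DMSO replicate 2 0.47 and −0.042. The P+B value changed sign with median centring and when single libraries were left out.

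*Trim71* was at 31 and 24 (DMSO), 33 and 30 (PFI-3), 33 and 23 (BI-9564) and 29 and 27 (P+B). All treated groups overlapped DMSO. The log2 fold changes were 0.20, 0.01 and 0.04 for PFI-3, BI-9564 and P+B (SE 0.198), and those of BI-9564 and P+B changed sign with quantile normalization and with median centring. For P+B the 95% confidence interval ran from a fold of 0.748 to 1.40.

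**Figure D2:**
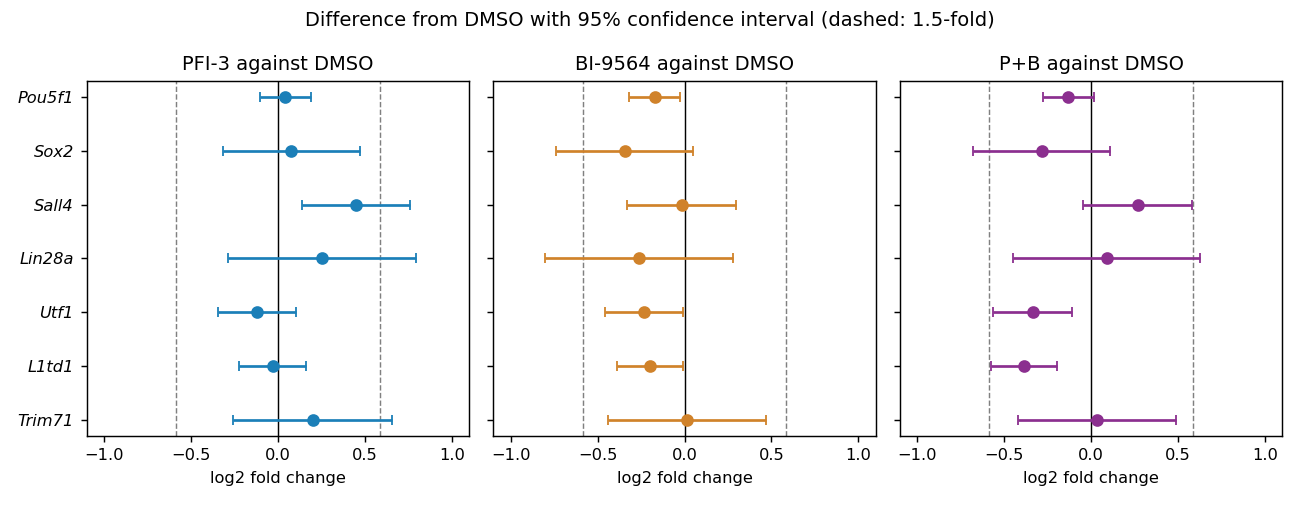
Log2 fold change from DMSO (horizontal axis) of each gene with PFI-3, BI-9564 and P+B, as points with the 95% confidence interval of the limma fit (2 libraries per group), beside dashed lines at 1.5-fold. With P+B the intervals of *L1td1* (−0.58 to −0.19) and *Utf1* (−0.56 to −0.11) lie below 0, and with PFI-3 that of *Sall4* (0.14 to 0.76) lies above 0. With BI-9564 those of *Pou5f1* (−0.32 to −0.02), *Utf1* (−0.46 to −0.007) and *L1td1* (−0.39 to −0.009) lie below 0. Their limma adjusted p-values with BI-9564 were 0.282, 0.326 and 0.321. The intervals are not adjusted, so excluding 0 equals an unadjusted p under 0.05. That held for 22.6% of all genes with P+B, 14.9% with BI-9564 and 6.79% with PFI-3.

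The width of the confidence interval differed between the genes. With P+B the 95% interval of 5 of 7 genes lay within 1.5-fold of DMSO in both directions, and those of *Sox2* and *Lin28a* did not. Of the 5, some came close to the limits. The interval of *Sall4* ended at a fold of 1.496 above, and those of *L1td1* and *Utf1* at 0.671 and 0.678 below. With BI-9564 the count within 1.5-fold was again 5 of 7, and with PFI-3 4 of 7. The share over all genes is not given here. The median absolute log2 change with P+B was 0.27 over the 7 genes and 0.22 over all genes. Their median signed change was −0.13, against 0.06 for all genes. The groups did not overlap for 5 of 7 genes with P+B (4 lower and *Sall4* higher), where 47.5% of all genes did not overlap. With BI-9564 this held for 3 of 7 beside 41.2%, and with PFI-3 for 2 of 7 beside 29.3%.

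A second reading of the design sets the 4 libraries that received a compound, alone or in P+B, against the 4 that did not. With BI-9564 all 7 genes had a lower mean, with log2 differences of −0.35 to −0.07 and a median of −0.21 beside 0.03 for all genes. The direction of *Trim71* turned without BI-9564 replicate 2 (0.051) or DMSO replicate 1 (0.014). Lower means were not particular to the 7: they were found in 10 of 12 naive pluripotency factors, none of them among the 7 (median −0.26). They were also found in 8 of 8 tested ESC markers (median −0.26), though that list includes *Pou5f1* and *Sox2*. None of the 7 was called (326 of all genes, 3.19%, with 121 to 168 when 1 library was left out and 506 with the block), and *L1td1* alone had an adjusted p under 0.05 (−0.28, SE 0.0588, adjusted p = 0.0324, limma), as did 689 of all genes (6.74%). This p was 0.0540 to 0.106 when 1 library was left out and 0.0999 for *L1td1* without the trend. In *L1td1* the libraries with BI-9564 were at 285 to 338 and those without at 356 to 401. In *Pou5f1* they were at 1104 to 1211 and 1273 to 1333. Both genes had an exact two-sided permutation p of 0.0286, the smallest that 4 against 4 can give, before any correction for the 14 such tests made. That test ignores the replicate series. Permuted within the series, over 36 arrangements, *Pou5f1*, *L1td1*, *Sox2* and *Utf1* all had an exact p of 0.0556, the smallest these allow. The share of all genes at that smallest p is not given here, so the count of 4 cannot be weighed. A complete separation of the 4 libraries with BI-9564 from the 4 without was found in 2 of 7 genes and in 13.8% of all genes. *Sox2* and *Utf1* were at an exact permutation p of 0.0571 across the series.

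With the replicate block, 4 genes had an adjusted p under 0.05 for BI-9564, as did 1508 of all genes (14.8%), and without the block 1 did. The values with and without the block were 0.0122 and 0.0601 for *Pou5f1*, 0.0174 and 0.118 for *Sox2*, 0.0139 and 0.0943 for *Utf1*, and 0.00577 and 0.0324 for *L1td1*. In all 4 pairs of same-numbered libraries these genes were lower with BI-9564 than without it, a measure without a share over all genes here. Their falls were 0.17, 0.35, 0.22 and 0.28 on the log2 scale, so that each stayed under 1.5-fold.

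For PFI-3 the same comparison gave 5 genes higher and 2 lower, with a median of 0.07 beside 0.02 for all genes, and none was called (33 of all genes, 0.323%, with 0 to 10 when 1 library was left out and 107 with the block). Of the 5, *Sox2* (−0.053) and *Trim71* (−0.016) turned without BI-9564 replicate 2, and *Pou5f1* (−0.0051) with median centring. *Sall4* was at 80 to 96 with PFI-3 and 60 to 75 without, with a log2 difference of 0.37 (SE 0.0964, adjusted p = 0.207, limma) and an exact permutation p of 0.0286, or 0.0556 within the replicate series. It was the only one of the 7 whose libraries separated completely, beside 3.20% of all genes. *Lin28a* stood at 0.30 (SE 0.166, limma, adjusted p = 0.566, and 0.0832 with the replicate block). In 4 of 4 pairs of same-numbered libraries *Lin28a* was higher with PFI-3. Its exact permutation p was 0.171 across the libraries and 0.0556 within the replicate series, the same as that of *Sall4*. In none of the 7 did P+B differ from the sum of the single compounds past the thresholds (0 of all genes, 0.00%, with 333 at an unadjusted p under 0.05 by limma, the only tool run).

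The treated groups were also compared with each other. All 7 genes had lower means with BI-9564 than with PFI-3, with log2 differences of −0.51 to −0.11 and a median of −0.21 beside 0.00 for all genes, and none was called (11 of all genes, 0.108%, with 0 or 1 when 1 library was left out and 151 with the block). *Trim71* turned to 0.067 without BI-9564 replicate 2. In the same comparison 12 of 12 naive factors (median −0.66) were lower, as were 8 of 8 ESC markers (median −0.70), *Pou5f1* and *Sox2* included. *Lin28a* showed the widest gap (−0.51, SE 0.235, adjusted p = 0.382), which had an adjusted p of 0.0442 with the replicate block, as 257 of all genes (2.51%) did under 0.05. P+B likewise gave lower means than PFI-3 for all 7 (−0.36 to −0.16), and none was called (134 of all genes, 1.31%, with 0 to 51 when 1 library was left out and 351 with the block). *Lin28a* turned to 0.11 without P+B replicate 1 and to 0.010 without PFI-3 replicate 2. Among them *L1td1* (−0.35, SE 0.0832) had an adjusted p of 0.0898 without and 0.0153 with the block, beside 574 of all genes (5.62%) under 0.05 with it. P+B and BI-9564 differed by −0.19 to 0.35, with none called (20 of all genes, 0.196%, with 0 to 7 when 1 library was left out and 82 with the block). PFI-3 libraries enter both of the first comparisons and P+B libraries both of the last, so these counts are not independent.

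The replicate series differed in several of the 7 genes in the same way in every treatment. *Lin28a* was higher in replicate 2 in 4 of 4 groups, by 0.43 on the log2 scale (SE 0.0686, fold 1.34, adjusted p = 0.0193, limma), a p threshold that 385 of all genes (3.77%) passed. The adjusted p was 0.0978 to 0.103 when 1 library was left out. *Sox2*, *Utf1*, *L1td1* and *Trim71* were lower in replicate 2 in 4 of 4 groups. The share of all genes with the same direction in 4 of 4 groups is not given here. *Sox2* and *Trim71* both stood at −0.27 (SE 0.0706 and 0.100, adjusted p = 0.0849 and 0.188). None was called (135 of all genes, 1.32%, and 32 to 52 when 1 library was left out). *Jun* was higher in replicate 2 by 0.51 (SE 0.0267, adjusted p = 0.000382), below the fold threshold. In P+B against DMSO *Jun* was at −0.37 (limma, adjusted p = 0.437, and 0.00156 with the replicate block), also below that threshold. The part of *Jun* in the differences of the 7 genes was not tested. For *Lin28a* the gap between replicates within DMSO (47 and 64) was larger than the mean difference between DMSO and either single compound.

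**Figure D3:**
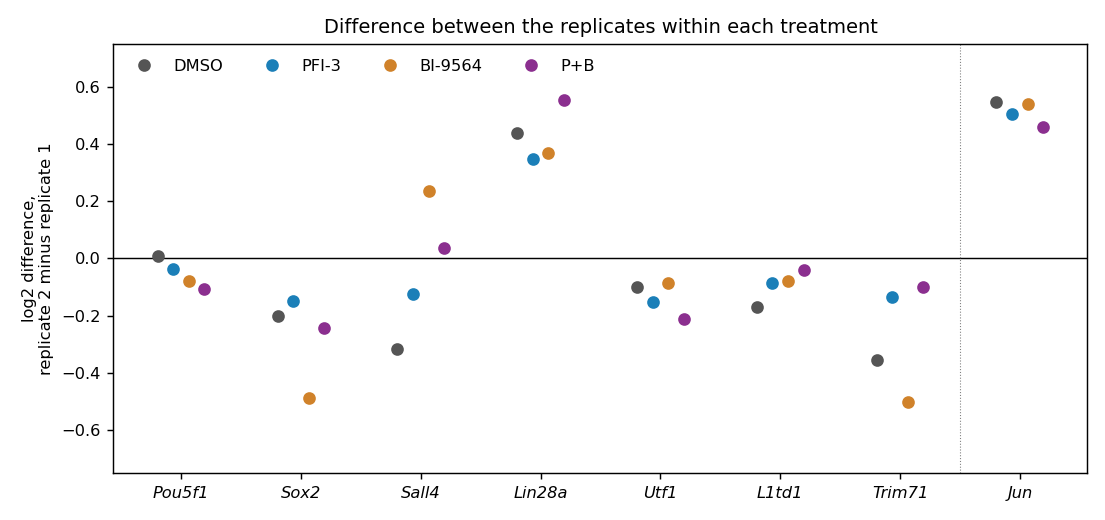
Log2 difference between replicate 2 and replicate 1 (vertical axis) within each of the 4 treatments (1 coloured point each) for the 7 genes and *Jun* (horizontal axis). *Lin28a* and *Jun* lie above 0 in 4 of 4 treatments, and *Sox2*, *Utf1*, *L1td1* and *Trim71* lie below 0 in 4 of 4.

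The LIN28 and let-7 pathway was described through 25 further genes named from general knowledge, of which 24 were tested. With P+B, 12 of the 24 were higher and 12 lower than with DMSO, with a median of 0.00 beside 0.06 for all genes, and 2 were called, both lower. *Myc*, a growth-promoting transcription factor and let-7 target, had 40 and 32 in the DMSO libraries and 16 and 15 in those given P+B (log2 −1.16, SE 0.149, adjusted p = 0.00546). *Hmga2*, a chromatin protein whose mRNA is a classic let-7 target, was at 80 and 95 (DMSO), 72 and 83 (PFI-3), 51 and 62 (BI-9564) and 39 and 45 (P+B) (−1.04, SE 0.149, adjusted p = 0.00861). The *Myc* call was lost without DMSO replicate 1 (adjusted p = 0.0562) or P+B replicate 2 (0.0578), and that of *Hmga2* without either DMSO or either P+B library (0.0556 to 0.0801). *Nras*, a let-7 target that encodes a small GTPase, fell by 0.51 (SE 0.111, adjusted p = 0.0414) without reaching 1.5-fold. *Lin28b*, the paralogue of *Lin28a*, was at 3 to 9 in all libraries, against 40 to 74 for *Lin28a*.

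**Figure D4:**
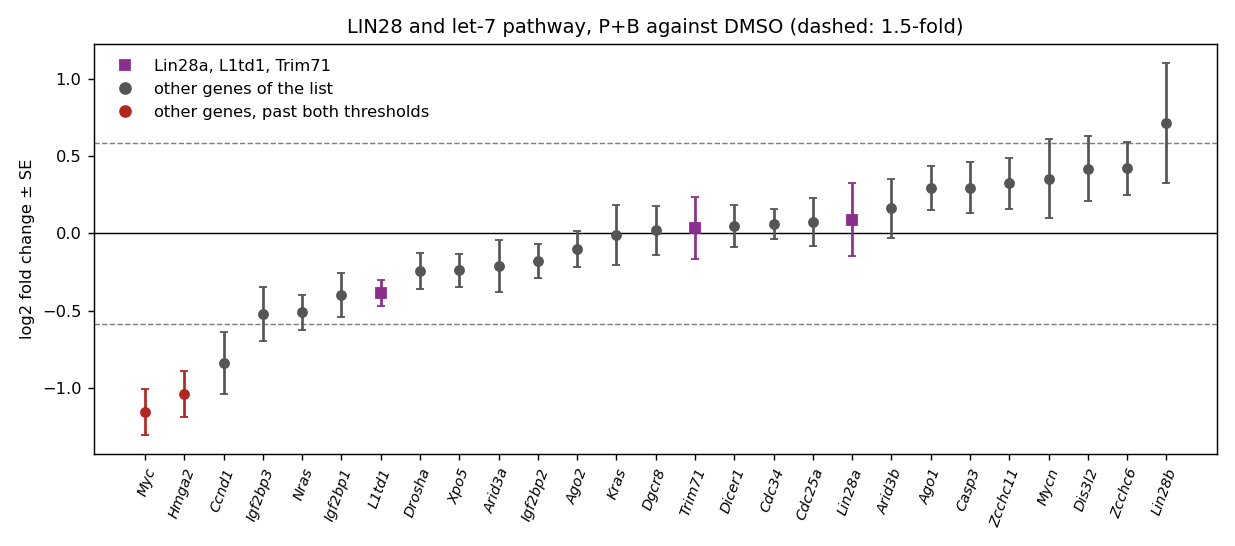
Log2 fold change of P+B against DMSO with its SE (vertical axis) for 24 genes of the LIN28 and let-7 pathway (circles) and for *Lin28a*, *L1td1* and *Trim71* (squares), in rank order, with dashed lines at 1.5-fold. *Myc* (−1.16) and *Hmga2* (−1.04), in red, passed both thresholds, and *Lin28a* (0.09) and *Trim71* (0.04) lie near 0.

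Transcripts known to be repressed by TRIM71 were read beside *Trim71*. All 6 tested of 7 had a higher mean with P+B than with DMSO, as did 58.0% of all genes. Their median was 0.31, against 0.06 for all genes, and 1 was called. *E2f7* turned to −0.098 without DMSO replicate 2. The called gene was *Cdkn1a*, which encodes the cell cycle inhibitor p21, at 90 and 77 (DMSO), 96 and 73 (PFI-3), 148 and 141 (BI-9564) and 131 and 137 (P+B) (log2 0.68, SE 0.140, adjusted p = 0.0348). The call was lost without any 1 DMSO, BI-9564 or P+B library (adjusted p = 0.0712 to 0.183). *Rbl1* (0.40, SE 0.235, adjusted p = 0.363) and *E2f7* (0.37, SE 0.278, adjusted p = 0.471), both regulators of the cell cycle, did not pass. The higher means were not particular to P+B. With BI-9564 alone 5 of the 6 were higher than with DMSO (median 0.42), and with PFI-3 alone 2 were (median −0.05).

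Among 26 tested genes for protein partners of OCT4 and SOX2, 12 were higher and 14 lower with P+B, with a median of −0.01, and 1 was called. *Mta3*, a subunit of the NuRD deacetylase complex, was at 142 and 123 (DMSO), 130 and 114 (PFI-3), 71 and 80 (BI-9564) and 79 and 72 (P+B) (log2 −0.80, SE 0.121, adjusted p = 0.0103). Its paralogue *Mta2* fell by 0.41 (SE 0.0920, adjusted p = 0.0443), short of 1.5-fold, and *Zfp462*, a zinc finger protein, was at −0.63 (SE 0.157, adjusted p = 0.0602, and 0.0409 with the replicate block). The *Mta3* call was lost without either DMSO or either P+B library (adjusted p = 0.0519 to 0.104).

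Of the 12 tested naive pluripotency factors, 8 were higher and 4 lower with P+B, and 0 were called by limma without a block. With BI-9564 against DMSO, 9 of 12 were lower, with a median of −0.15. In replicate 2 against replicate 1, 11 of 12 were lower, with a median of −0.41, and 3 were called, beside 1.32% of all genes. With PFI-3, 11 of 12 were higher, with a median of 0.48 on the log2 scale, while the median of the 7 genes described here was 0.08 and that of all genes 0.02. *Klf2*, a transcription factor of naive cells, was at 65 and 52 (DMSO), 109 and 95 (PFI-3), 88 and 60 (BI-9564) and 152 and 94 (P+B) (1.03 with P+B, SE 0.250, adjusted p = 0.0568, and 0.00284 with the replicate block). *Esrrb*, another, was at 0.74 (SE 0.241, adjusted p = 0.120, and 0.00486 with the block), and *Klf5* at −0.49 (SE 0.162, adjusted p = 0.125, and 0.00521 with the block). Among the 8 ESC markers, *Tdgf1*, a co-receptor of NODAL signalling, was called lower, with 163 and 156 in the DMSO libraries and 82 and 84 in those given P+B (−0.93, SE 0.136, adjusted p = 0.00916), and *Klf4* stood at 0.52 (SE 0.208, adjusted p = 0.189, and 0.0331 with the block). The *Tdgf1* call was lost without either DMSO or either P+B library (adjusted p = 0.0721 to 0.0861).

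Over the 8 libraries the 5 genes most like the mean profile of the 7 were *Mphosph8*, *H2-M6-ps*, *Epop*, *Cep192* and *Chac1*, with Pearson's r of 0.970 to 0.984 on the log2 scale, as a description over libraries that share treatment and replicate series. *Mphosph8*, a subunit of the HUSH silencing complex, was at 69 and 62 (DMSO), 74 and 69 (PFI-3), 56 and 49 (BI-9564) and 57 and 54 (P+B). *Epop*, a Polycomb-associated protein, had 225 and 197, 238 and 232, 187 and 171, and 204 and 189 in the same order. Both were highest with PFI-3 and lowest with BI-9564, as the mean profile was.

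On GRCm38 the genes lie at chr17:35506018-35510772 (*Pou5f1*, plus strand), chr3:34650405-34652461 (*Sox2*, plus), chr2:168748332-168767943 (*Sall4*, minus), chr4:134003330-134018841 (*Lin28a*, minus), chr7:139943789-139945112 (*Utf1*, plus), chr4:98726734-98738480 (*L1td1*, plus) and chr9:114507133-114564369 (*Trim71*, minus). *Utf1* and *L1td1* overlap no other annotated gene. *Pou5f1* overlaps the antisense gene *Gm19553*, listed at 5 to 22, and *Sox2* lies within *Sox2ot*, listed at 0 in every library. The genes that overlap *Lin28a* and *Trim71* were listed at 0, and that at *Sall4* at 2 or less. The counting of strand is not given in the sources used here, so reads of *Pou5f1* and its antisense partner cannot be told apart.

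RefSeq promoter windows (GRCm38.p6, 300 bases each, across an annotated start) were held for 6 of the 7 genes, all but *Sall4*. Those of *L1td1* and *Utf1*, the genes with the largest falls with P+B, are printed 5′ to 3′ on the plus strand, with GC boxes (GGGCGG on either strand) in capitals.
L1td1 promoter, chr4:98726504-98726803: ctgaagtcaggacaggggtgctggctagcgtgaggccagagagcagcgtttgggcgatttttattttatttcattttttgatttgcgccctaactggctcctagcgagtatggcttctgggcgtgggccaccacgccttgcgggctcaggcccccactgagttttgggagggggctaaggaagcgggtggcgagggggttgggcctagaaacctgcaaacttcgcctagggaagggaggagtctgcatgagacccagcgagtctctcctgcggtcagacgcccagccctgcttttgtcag
Utf1 promoter, chr7:139943606-139943905: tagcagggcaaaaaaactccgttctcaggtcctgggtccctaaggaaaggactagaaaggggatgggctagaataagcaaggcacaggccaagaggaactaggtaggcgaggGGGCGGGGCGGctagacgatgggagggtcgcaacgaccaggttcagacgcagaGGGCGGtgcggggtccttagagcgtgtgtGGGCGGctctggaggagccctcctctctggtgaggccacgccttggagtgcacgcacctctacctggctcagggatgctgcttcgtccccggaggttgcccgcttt
*Utf1* held 4 GC boxes, of which 2 overlap by 1 base, and *L1td1* none. The AP-1 motif TGANTCA was in none of the windows of the 6 genes and in 7.81% of 32851 windows of the genome, and the octamer ATGCAAAT was in none and in 1.74%. No match says only that these letters are not in this window.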

How the data were processed

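RNA from JUN TetON ESCs was sequenced in 4 groups of 2 libraries. Libraries were prepared with a poly(A) mRNA kit. The submitters' processing notes name bcl2fastq, Bowtie2 2.2.5, RSEM 1.3.0 and mm10. The values the authors deposited are a score, TPM rounded or cut to whole numbers. DESeq2, named in the paper, needs raw counts and was not run. Groups were taken from the labels.

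On the scale log2(value + 1), linear models were fitted by limma 3.58.1 under R 4.3.3 (lmFit, eBayes with a trend). Tested were all genes whose mean reached 5, and fold changes are on that scale, which understates those of low genes. All groups were fitted together with 4 residual degrees of freedom, and the Benjamini-Hochberg adjustment was made separately per comparison. A call needed an adjusted p under 0.05 together with a 1.5-fold change. Exact two-sided permutation tests were run with scipy 1.17.1. With 2 against 2 libraries they cannot go below 0.333, so they were run for 4 against 4 only, across all libraries and also within the replicate series. Only the limma fit without a block was run on simulated data, for P+B and PFI-3 against DMSO. Those data had no difference between replicate series, unlike the real ones. The replicate block and the permutation tests were not simulated.

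The 7 genes and all lists were chosen with earlier results of these data known. Named are the 7 genes, up to 3 tested genes of each list with the smallest unadjusted p in P+B against DMSO, the 5 genes most like the mean profile, and *Jun*. One gene that this rule names is not reported here.

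The labels number the replicates alike in each group. Across genes, replicate differences correlated between the groups in each of 6 pairs (Pearson's r 0.143 to 0.236). The main fit had no replicate term, so its values and calls are unpaired. Same-numbered libraries were therefore treated as paired in a replicate block, in the permutations within the series and in the counts of pairs only. Where the block moved a reported adjusted p of a gene across the threshold, the value with the block is also given. The alternatives were this block, pseudocounts of 0.5 and 5, filters at a mean of 1, of 20 and none, quantile normalization, median centring, no trend, only the libraries compared, no fold threshold, and each library left out. Figures were drawn with matplotlib 3.10.9. Positions are from GENCODE M21 and RefSeq.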

Additional observations from a re-analysis of the deposited data

How the results depend on the processing

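The count of genes called among the 7 was 0 under every alternative that kept the fold threshold, in each comparison it was run on, and left-out libraries gave 0 to 0. The replicate block was run on 9 of the 10 comparisons (not between the replicates), and the fit of only the libraries compared on 6. Without the fold threshold it was 1 in P+B against DMSO, 1 with BI-9564 and 1 between the replicates. The replicate block moved the count of all genes called in P+B against DMSO from 409 to 718. Leaving out 1 library gave 68 to 268, a fit of only the libraries compared 0, and no filter on low values 907.

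Within the replicate series the exact permutation p of *Pou5f1* (log2 −0.17) and *L1td1* (−0.28) with BI-9564 and of *Sall4* (0.37) with PFI-3 was 0.0556, not 0.0286, an alternative chosen after seeing the data.

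The directions that turned were of values that had not passed the test. With quantile normalization, *Trim71* was at −0.036 with P+B and −0.019 with BI-9564, and *Sall4* at 0.013 with BI-9564. With median centring, *Lin28a* was at −0.00446 and *Trim71* at −0.058 with P+B, *Trim71* at −0.033 with BI-9564 and *Pou5f1* at −0.00405 with PFI-3. Left-out libraries gave −0.19 to 0.37 for *Lin28a* and −0.14 to 0.21 for *Trim71* with P+B, −0.24 to 0.27 for *Trim71* and −0.18 to 0.14 for *Sall4* with BI-9564, and −0.12 to 0.055 for *L1td1* and −0.022 to 0.18 for *Sox2* with PFI-3. For *E2f7* they gave −0.10 to 0.84 and for *Eomes* −0.011 to 0.67, both with P+B. The replicate block added calls for *Klf2*, *Esrrb*, *Zfp462*, *Sox12* and *Sox13* in P+B against DMSO. *Nras* was called with median centring (−0.61), *Zfp462* with quantile normalization (−0.71) and median centring (−0.72), *Sox13* without the trend (adjusted p = 0.0360), *Klf2* with the filter at a mean of 20 (0.0476), and *Klf2* and *Esrrb* with no filter. *Cdkn1a* and *Tubb3* were not called with the filter at a mean of 1 or without the trend, *Zic2* not with that filter or quantile normalization, and *Tubb3* not with median centring. The cause was not tested. Depth is unknown and could not be weighed.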

Other observations

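Relatives of the transcription factors and genes of later pluripotent states were read in the same fit. Of 15 other POU, SOX and SALL genes, 6 were tested, and with P+B 3 were higher and 3 lower than with DMSO. *Sall1*, a paralogue of *Sall4*, was called lower, with 48 and 43 (DMSO), 41 and 45 (PFI-3), 26 and 25 (BI-9564) and 24 and 29 (P+B) (log2 −0.76, SE 0.141, adjusted p = 0.0240). The call was lost when any 1 of the 8 libraries was left out (highest adjusted p = 0.129). *Sox13* was at 1.00 (adjusted p = 0.0571, and 0.0348 with the replicate block) and *Sox12* at 0.61 (adjusted p = 0.206, and 0.0356 with the block).

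Of 12 formative and primed genes, 5 were tested and 1 was called. *Zic2*, a zinc finger factor of formative and neural cells, had 6 and 6 in the DMSO libraries and 13 and 19 in those given P+B (1.26, SE 0.280, adjusted p = 0.0439). *Dnmt3b* was at −0.26 (adjusted p = 0.136) and *Cdh2* at −0.51 (adjusted p = 0.201). Among markers of other cell types, *Tubb3*, a neuronal tubulin, was called higher (0.62, SE 0.140, adjusted p = 0.0444), and *Tfap2c* (0.50, adjusted p = 0.363) and *Eomes* (0.33, adjusted p = 0.622) were not. The calls of *Zic2* and *Tubb3* were each lost without any 1 of the 8 libraries (highest adjusted p = 0.218 and 0.221). Of 10 reference genes 0 were called by limma with P+B, among them *Rplp0* (0.18, adjusted p = 0.0815, and 0.0159 with the replicate block) and *Actb* (−0.17, adjusted p = 0.138).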
